A study of Mus musculus with 48 samples.

Results

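The genes described here are 42 mouse genes of S phase and DNA replication, taken by name from the 25528 genes of the deposited table. They cover 7 roles: 11 subunits of the replicative helicase, 6 genes of helicase loading and origin firing, 6 of the sliding clamp and its loader, 6 of the DNA polymerases and primase, 4 of strand maturation and single-strand binding, 4 of nucleotide supply, and 5 cyclin E, E2F and chromatin genes. All 42 passed the filter on low counts in every fit.

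RNA sequencing was done on Cas9-Hoxb8 cells, a mouse progenitor line held immature by Hoxb8 that also carries Cas9, labelled as granulocyte and monocyte progenitors (GMP). There were 4 genotypes: wildtype, E6l2-KO (aimed at Ercc6l2, a DNA repair helicase-like gene), Trp53-KO (aimed at the gene for p53) and E6l2-Trp53-KO (aimed at both). Each genotype was grown for 48 h with DMSO, with Etoposide, or at High cell density (HCD), with 3 libraries per group. In addition, 4 transformed clones had 3 libraries each: clones 4 and 6 had the genotype Trp53-KO, and clones 7 and 12 had E6l2-Trp53-KO. Wells of untransformed cells were seeded with 0.25 M cells, or with 4 M for high density. No seeding number or culture time is given for the clones. Etoposide, which traps topoisomerase II on cut DNA, was used at a concentration that the sources used here do not give. Whether the dense wells also received DMSO is not stated, so density and vehicle cannot be told apart. The clones are labelled "Etoposide transformed", and their RNA was taken with no drug given beforehand. Nothing in the labels names separately edited lines of a genotype, so genotype and edited line cannot be told apart, and nothing says whether the 3 libraries of a group came from separate cultures. The p-values therefore measure the spread between these libraries, which may be technical.

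Replication begins when the origin recognition complex, CDC6 and CDT1 place the MCM helicase on DNA, and it starts when CDC45 and the GINS complex join the helicase in S phase. Polymerase alpha with primase lays down primers, polymerases delta and epsilon extend them on the PCNA clamp, and FEN1 and LIG1 join the lagging-strand pieces. Many of these genes are transcribed at the G1 to S transition by E2F factors, which are released as cyclin E with its kinase phosphorylates the retinoblastoma protein. In a bulk library a lower level can come from fewer cells in S phase or from less RNA per cell, and these cannot be told apart here.

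Library totals ranged from 22.5 to 40.9 M counts (M for mega) over the 36 untransformed libraries and from 23.0 to 114 M over the 12 clone libraries. Trp53 RNA was 73.7 to 79.9 CPM (counts per 1 M counts) in wildtype DMSO libraries and 27.6 to 28.7 CPM in Trp53-KO DMSO libraries, with no overlap. Ercc6l2 RNA was 25.9 to 28.1 CPM in E6l2-KO DMSO libraries and 29.5 to 30.4 CPM in wildtype, so its RNA level does not check that label. The sources used here do not give the position of the edit. Replicate 3 of E6l2-Trp53-KO with etoposide stood apart: it had the highest total of the untransformed libraries, and its Pcna level was 669.5 CPM beside 488.7 and 463.9 CPM in replicates 1 and 2.

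Promoters are shown because E2F words are the sequence feature known to be common to this gene class. RefSeq promoter sequences (build GRCm38.p6, 250 bases before to 50 after each transcript start) matched 34 of the 42 genes, with 40 promoters in all. Mcm4, Gins1, Gins2, Gins4, Rfc2, Prim2, Pole and Ccne2 had no entry. The 4 E2F words searched on both strands were TTTCCCGC, TTTCGCGC, TTTGCCGC and TTTGGCGC. At least 1 of them was present in 15 of the 40 promoters (37.5%), against 744 of 32851 promoters of the same length (2.26%). The NF-Y box CCAAT was in 62.5% of the 40 and in 37.4% of all promoters, and the CHR word TTTGAA, known from G2 and mitosis genes, was in 12.5% and 17.9%. Matches were counted wherever the letters occurred, including where they overlapped.

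The upstream 250 bases of 4 genes with E2F words follow, written 5′ to 3′ on the strand of the gene, with every E2F word on either strand in capitals. Mcm5, Mcm6 and Mcm7 encode subunits of the ring-shaped MCM helicase, and Orc1 encodes an ATP-binding subunit of the origin recognition complex. The Mcm5 promoter lies at chr8:75109259-75109508 on the + strand and has words that overlap, starting 153 and 149 bases before the transcript start. The Mcm6 promoter lies at chr1:128359706-128359955 on the - strand and has 3 words, of which the first 2 overlap. The Mcm7 promoter shown lies at chr5:138171884-138172133 on the - strand, and the Orc1 promoter at chr4:108579204-108579453 on the + strand, each with 1 word in the bases shown. Another Mcm7 promoter, at chr5:138171267-138171516, held 0 E2F words and is not shown.
Mcm5: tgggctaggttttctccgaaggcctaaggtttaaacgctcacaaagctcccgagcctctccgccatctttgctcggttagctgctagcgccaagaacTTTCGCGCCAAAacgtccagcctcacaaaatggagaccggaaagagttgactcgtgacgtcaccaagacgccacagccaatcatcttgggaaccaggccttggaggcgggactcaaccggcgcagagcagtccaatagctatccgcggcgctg
Mcm6: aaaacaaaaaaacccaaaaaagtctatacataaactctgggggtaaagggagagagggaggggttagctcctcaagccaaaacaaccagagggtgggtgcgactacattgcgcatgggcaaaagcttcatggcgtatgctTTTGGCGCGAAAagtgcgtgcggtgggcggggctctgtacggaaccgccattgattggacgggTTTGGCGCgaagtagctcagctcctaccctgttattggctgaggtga
Mcm7: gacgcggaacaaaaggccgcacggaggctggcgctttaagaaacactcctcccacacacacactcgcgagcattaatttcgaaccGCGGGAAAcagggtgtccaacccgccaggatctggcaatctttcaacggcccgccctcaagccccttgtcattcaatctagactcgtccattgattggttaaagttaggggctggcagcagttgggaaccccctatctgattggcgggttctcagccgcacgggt
Orc1: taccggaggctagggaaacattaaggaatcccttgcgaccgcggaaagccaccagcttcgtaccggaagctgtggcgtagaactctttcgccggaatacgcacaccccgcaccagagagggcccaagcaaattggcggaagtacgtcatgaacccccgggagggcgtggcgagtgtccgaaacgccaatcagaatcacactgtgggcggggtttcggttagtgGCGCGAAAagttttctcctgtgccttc

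**Figure D1:**
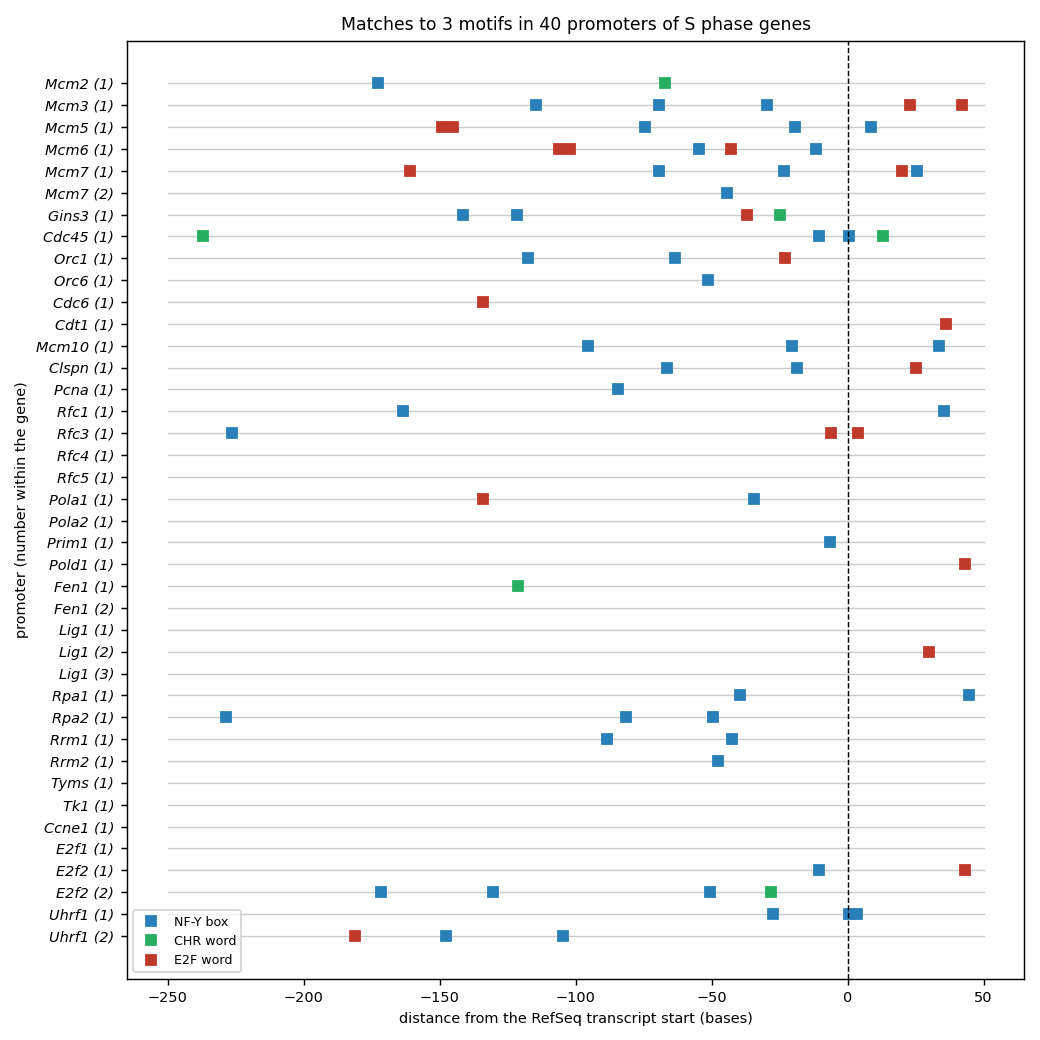
Positions of E2F words, NF-Y boxes and CHR words in the 40 promoters of the 34 matched genes (rows), in bases from the RefSeq transcript start (x axis, dashed line at the start). At least 1 E2F word is present in 15 of the 40 promoters, and the words lie on both sides of the start.

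In wildtype cells with DMSO, the replication genes spanned a wide range of levels, which are compared here per kilobase of the longest protein-coding transcript. Pcna, the sliding clamp, was highest at 343 ± 8.46 CPM per kb (SD, n = 3). It was followed by the helicase subunits Mcm7 at 132, Mcm5 at 111, Mcm3 at 107 and Mcm6 at 104 CPM per kb, and by Rrm1, the large subunit of ribonucleotide reductase, at 93.0 CPM per kb. The lowest were E2f2, an E2F activator, at 1.67 ± 0.21 CPM per kb, the GINS subunit Gins3 at 6.93, Orc1 at 7.88, E2f1 at 8.11 and Ccne1, which encodes cyclin E1, at 8.73 CPM per kb. No test was made between genes.

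Most of the replication genes were lower at high cell density than with DMSO in every genotype. At an adjusted p under 0.05 (edgeR's quasi-likelihood test, Benjamini-Hochberg adjustment over 14059 genes), 23 of the 42 genes fell and 3 rose in wildtype, where 23.6% of all genes tested fell and 24.9% rose. In E6l2-KO 26 fell and 2 rose, against 18.4% and 22.3% of all genes. In Trp53-KO 34 fell and 1 rose, against 20.9% and 23.9%. In E6l2-Trp53-KO 29 fell and 1 rose, against 20.7% and 25.5%. The median log2 fold change of the 42 genes was -0.16, -0.17, -0.29 and -0.28 in that order, while the median of all genes tested lay between -0.013 and 0.0089. Across the 4 genotypes 22 genes fell in all 4, E2f2 rose in all 4, and 5 were called in none. No such joint count over all genes is given here to set beside these.

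**Figure D2:**
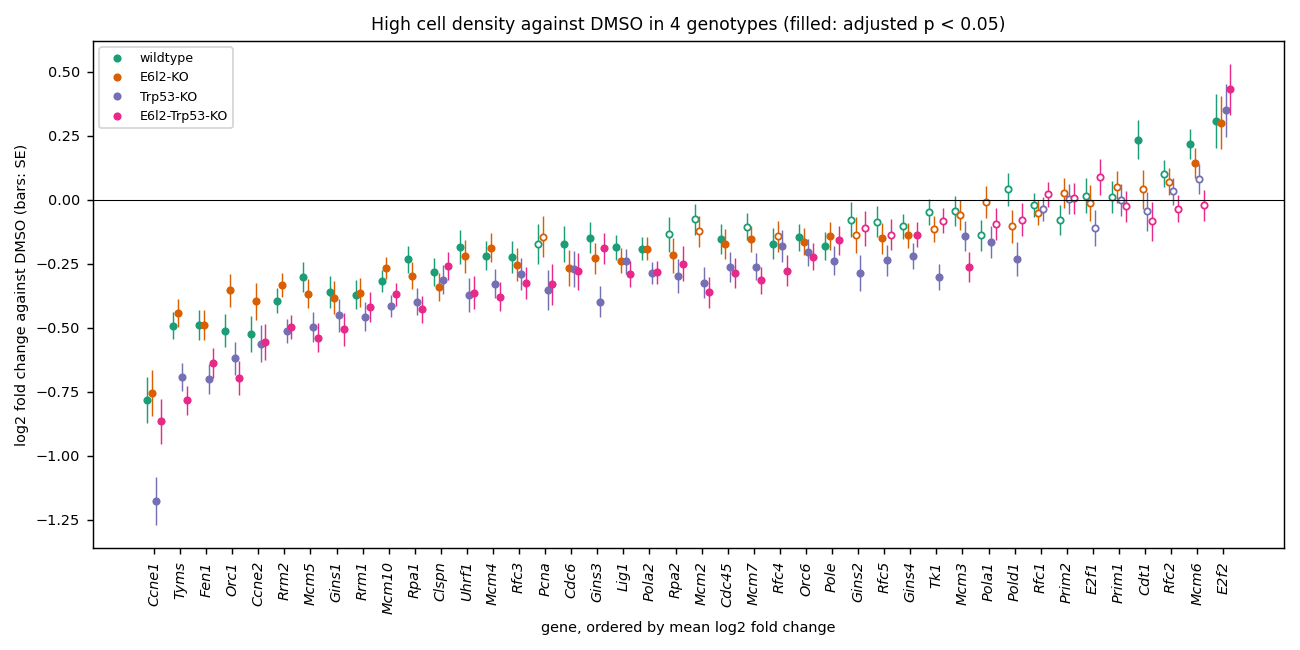
Log2 fold change of each of the 42 genes (x axis, ordered by the mean) at high cell density against DMSO in the 4 genotypes (colours), with bars of 1 SE and filled points where the adjusted p was under 0.05. Ccne1 is lowest in all 4, and E2f2 is above 0 in all 4.

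The 11 helicase genes did not move as 1 group. Mcm4, Mcm5, Gins1, Gins3 and Cdc45, which together span the MCM ring, the GINS complex and the CDC45 subunit, fell in all 4 genotypes. Mcm5 stood at 369.5, 372.1 and 385.2 CPM in the 3 wildtype DMSO libraries and at 277, 320.8 and 326.2 CPM at high density (log2 fold change -0.30, SE 0.06, adjusted p = 5.24e-05). In E6l2-Trp53-KO it was 371.9, 387.6 and 369.7 CPM with DMSO and 255.2, 251.6 and 261.8 CPM at high density (log2 fold change -0.54, adjusted p = 1.9e-09). The dense libraries were below every DMSO library in both genotypes. Mcm7 and Gins4 fell in every genotype except wildtype, Mcm2 and Mcm3 in Trp53-KO and E6l2-Trp53-KO, and Gins2 in Trp53-KO.

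Mcm6 moved the other way from its ring partners in wildtype and E6l2-KO. It was 459.6, 451.7 and 444.4 CPM with DMSO in wildtype and 488, 540 and 565.9 CPM at high density (log2 fold change 0.22, SE 0.06, adjusted p = 0.00272). In E6l2-KO it was 471.3, 447.7 and 466.4 CPM with DMSO and 485, 522.7 and 526.1 CPM at high density (log2 fold change 0.14, adjusted p = 0.0474). The groups did not overlap in either genotype, while in Trp53-KO and E6l2-Trp53-KO they overlapped and the log2 fold changes were 0.08 and -0.02. The difference in the Mcm6 response between Trp53-KO and wildtype was -0.14 on the log2 scale (adjusted p = 0.441), so these responses were not shown to differ.

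Genes of helicase loading and origin firing were mostly lower at high density. Orc1, Orc6, Cdc6, Mcm10 and Clspn fell in all 4 genotypes; CDC6 loads the MCM ring, MCM10 helps to activate it and Claspin links the fork to the checkpoint kinase CHK1. Orc1 was 23.77, 23.68 and 23.8 CPM with DMSO and 14.91, 18.01 and 17.64 CPM at high density in wildtype (log2 fold change -0.51, SE 0.06, adjusted p = 7.27e-08). In E6l2-Trp53-KO it went from 25.66, 25.72 and 25.25 CPM to 14.74, 15.93 and 16.09 CPM (log2 fold change -0.70, adjusted p = 1.31e-10). No dense library reached a DMSO library of its genotype. Cdt1, the loading factor that is destroyed once S phase starts, was the exception in its group, since it rose in wildtype by 0.23 on the log2 scale (SE 0.08, adjusted p = 0.0119) and lay between -0.08 and 0.04 in the other genotypes.

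Among clamp, polymerase and maturation genes, Fen1 changed most. FEN1 is the nuclease that removes the flap at the end of each lagging-strand piece. Its level was 128.5, 127.3 and 126.4 CPM with DMSO and 84.01, 89.95 and 101.5 CPM at high density in wildtype (log2 fold change -0.49, SE 0.06, adjusted p = 2.62e-08). In Trp53-KO it went from 142.6, 132.4 and 135.6 CPM to 77.16, 85.93 and 87.43 CPM (log2 fold change -0.70, adjusted p = 1.31e-11). The groups did not overlap in either genotype. Lig1, the ligase that seals the nick, and Rpa1, the large subunit of the single-strand binding complex, also fell in all 4 genotypes. Of the clamp genes only Rfc3, a clamp loader subunit, fell in all 4, and Pcna fell in Trp53-KO and E6l2-Trp53-KO. Rfc1 and Rfc2 were called in none. Of the polymerase genes, Pola2 and Pole fell in all 4 genotypes, and the primase genes Prim1 and Prim2 were called in none.

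Nucleotide supply genes had the lowest median log2 fold change of the 7 roles in every genotype, at -0.383 in wildtype, -0.349 in E6l2-KO, -0.485 in Trp53-KO and -0.459 in E6l2-Trp53-KO. Tyms, which encodes thymidylate synthase, was 180.1, 182.7 and 183.1 CPM with DMSO in wildtype and 122.2, 132.2 and 138.3 CPM at high density (log2 fold change -0.49, SE 0.05, adjusted p = 5.56e-09). In E6l2-Trp53-KO it was 183.9, 175.6 and 179.7 CPM with DMSO and 111.2, 97 and 101.2 CPM at high density, 1.72-fold lower (log2 fold change -0.78, adjusted p = 1.55e-13). Every dense library lay below the DMSO libraries. Rrm1 and Rrm2, the subunits of ribonucleotide reductase, fell in all 4 genotypes as well, with Rrm2 at -0.39 in wildtype and -0.51 in Trp53-KO. Tk1, the thymidine kinase of the salvage pathway, fell in Trp53-KO by 0.30 on the log2 scale (adjusted p = 7.09e-06), but was not called in the other 3 genotypes.

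Ccne1 and E2f2 were at the ends of the range. Ccne1 was 18.06, 17.03 and 17.27 CPM with DMSO in wildtype and 8.554, 9.824 and 12.36 CPM at high density (log2 fold change -0.78, SE 0.09, adjusted p = 1.24e-08). In Trp53-KO it went from 20.4, 18.86 and 17.38 CPM to 7.681, 9.713 and 7.587 CPM, 2.27-fold lower (log2 fold change -1.18, SE 0.09, adjusted p = 3.37e-12). Its log2 fold change was -0.76 in E6l2-KO and -0.87 in E6l2-Trp53-KO, and no dense library overlapped the DMSO libraries in any genotype. Ccne2, which encodes cyclin E2, and Uhrf1, which carries DNA methylation marks onto the new strand, also fell in all 4.

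E2f2 rose while E2f1, which encodes the related activator E2F1, was called in none. E2f2 was 7.994, 6.896 and 8.882 CPM with DMSO in wildtype and 9.387, 10.05 and 10.37 CPM at high density (log2 fold change 0.31, SE 0.10, adjusted p = 0.0152). In E6l2-Trp53-KO it was 9.182, 10.62 and 9.638 CPM with DMSO and 11.53, 12.41 and 15.46 CPM at high density (log2 fold change 0.43, adjusted p = 0.000555). The groups were apart in both, by a small margin in CPM, since E2f2 is among the lowest of the 42 genes. With an offset for transcript length and GC content, the calls of E2f2 and Ccne2 at high density in wildtype and E6l2-KO and of Cdt1 in wildtype were lost.

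Other replication genes gave a similar direction at high density, and so did mitotic genes except in E6l2-Trp53-KO, where they were mixed. Of 58 further replication genes, 33 fell in wildtype, 32 in E6l2-KO, 42 in Trp53-KO and 38 where both genes were targeted, and 4, 7, 5 and 5 rose. The shares that fell were 56.9%, 55.2%, 72.4% and 65.5%, beside 23.6%, 18.4%, 20.9% and 20.7% of all genes. E2f7 and E2f8, the E2F repressors, were among the lowest in wildtype at -0.76 and -0.71 on the log2 scale. Of 20 G2 and mitosis genes, 15, 14, 16 and 7 fell and 0, 0, 0 and 4 rose. Mki67, the proliferation antigen, was not called in wildtype, E6l2-KO or Trp53-KO and rose in E6l2-Trp53-KO by 0.26 on the log2 scale (adjusted p = 7.54e-05). Cdkn1a, the p53 target that inhibits cyclin-dependent kinases, rose at high density in all 4 genotypes, by 2.39, 1.33, 2.77 and 1.74 on the log2 scale. Its part in the result was not tested.

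The size of the density response was compared between genotypes by interaction contrasts. For Trp53-KO minus wildtype 40 of the 42 log2 differences were below 0, with a median of -0.11, and edgeR called 0 of them, where 0.0569% of all genes were called above and 0.0356% below. Of the 42, 12 had an unadjusted p under 0.05, and DESeq2 called 0. For E6l2-KO minus wildtype edgeR and DESeq2 each called 0, and 0 had an unadjusted p under 0.05, against 0.00711% of all genes above and 0.0% below. For E6l2-Trp53-KO minus Trp53-KO both tools again called 0, with 3 at an unadjusted p under 0.05, against 0.256% above and 0.0782% below. For Ccne1 the response in Trp53-KO minus that in wildtype was -0.40 (SE 0.13, adjusted p = 0.159). With no filter on low counts, Cdt1 and Pold1 were called, with log2 differences in response of -0.32 (adjusted p = 0.0476) and -0.31 (adjusted p = 0.0474), and 1 gene was called without wildtype HCD replicate 1. In wildtype the number called went from 19 to 28 as single libraries were left out.

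**Figure D3:**
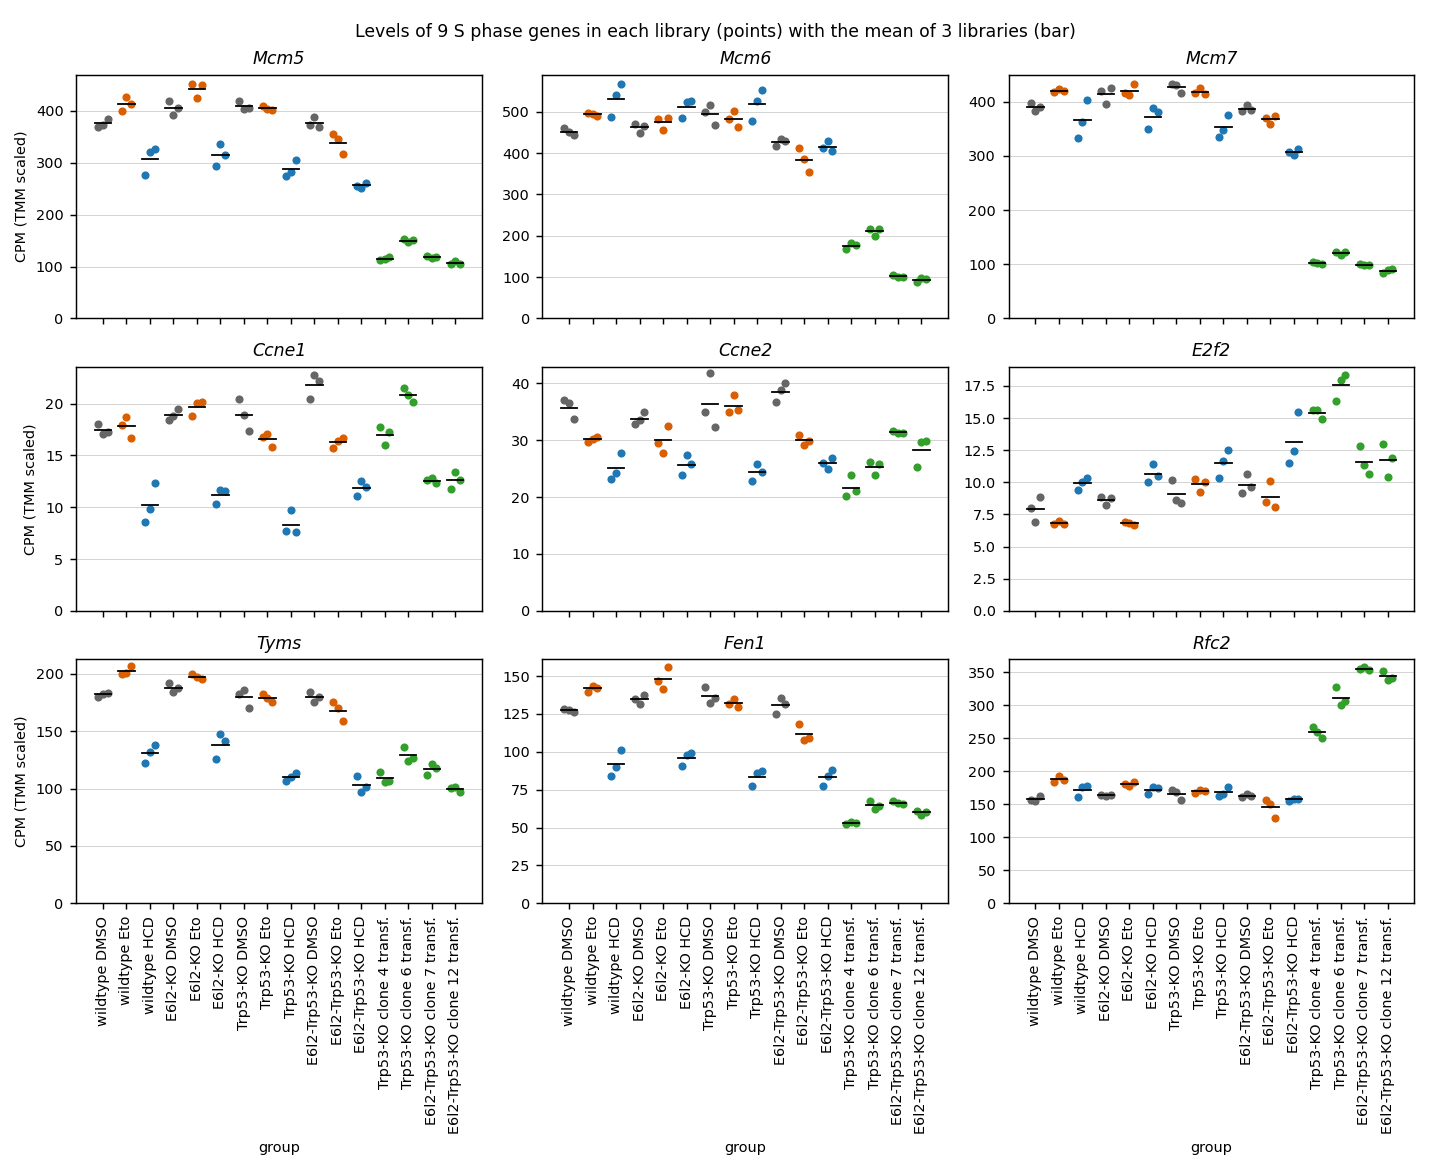
CPM (scaled by TMM) of 9 of the 42 genes in each library (points, 3 per group) with the mean of each group (bar), over the 12 genotype by treatment groups and the 4 transformed clones. Ccne1, Tyms and Fen1 are lower at high density in all 4 genotypes, and the MCM genes are lower in the clones while Rfc2 is higher.

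Few of the replication genes changed with etoposide, in both directions in wildtype and mostly or only downward in E6l2-KO and E6l2-Trp53-KO. In wildtype 6 of 42 rose and 4 fell, against 20.3% and 21.1% of all genes. In E6l2-KO 1 rose and 9 fell, against 18.9% and 16.1%. These splits moved with the processing: with an offset for transcript length and GC content they became 4 higher and 11 lower in wildtype and 0 higher and 14 lower in E6l2-KO, and with no filter on low counts 13 higher and 2 lower in wildtype and 3 higher and 3 lower in E6l2-KO. In E6l2-KO 1 rose and 1 fell without DMSO replicate 2, 1 rose and 2 fell without DMSO replicate 3, 0 rose and 6 fell without etoposide replicate 1, and 1 rose and 5 fell without etoposide replicate 2. In E6l2-Trp53-KO 0 rose and 6 fell, against 5.97% and 7.25%. In Trp53-KO edgeR called 0, against 0.0% of all genes in either direction, with 1 of the 42 at an unadjusted p under 0.05 and 0 called by DESeq2. The 4 genotypes were compared each with its own DMSO libraries, and in wildtype the share of the 42 genes called was below that of all genes in both directions. Over the 4 genotypes 22 of the 42 genes were called in none, 14 fell in at least 1 and 6 rose in at least 1. The matching counts over all genes are not given here. Cdkn1a rose by 2.16 on the log2 scale in wildtype and by 2.04 in E6l2-KO and was not called in Trp53-KO or E6l2-Trp53-KO.

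The genes that rose with etoposide in wildtype were helicase, clamp loader and single-strand binding genes. Gins2 was 60.63, 59.52 and 61.68 CPM with DMSO and 69.27, 74.99 and 78.99 CPM with etoposide (log2 fold change 0.24, SE 0.07, adjusted p = 0.00534). Rpa1 was 184.7, 175.7 and 172.9 CPM with DMSO and 210.9, 207.1 and 207.8 CPM with etoposide (log2 fold change 0.17, adjusted p = 0.00889). The etoposide libraries were above every DMSO library for both genes. Gins1, Gins4, Rfc2 and Rpa2 rose by 0.12 to 0.19 on the log2 scale. Gins2 shares 2758 of its 4097 exon bases with Gse1 on the opposite strand, and Gse1 fell by 0.27 in the same comparison. The kit does not mark strand, so reads of the shared bases cannot be told apart. With the offset for length and GC content, Gins1, Gins2 and Rpa2 lost their calls and Gins4 turned to -0.10.

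The genes that fell in wildtype with etoposide were Ccne2, E2f1, E2f2 and Lig1. E2f1 was 22.84, 22.85 and 21.35 CPM with DMSO and 18.23, 19.88 and 20.1 CPM with etoposide (log2 fold change -0.26, SE 0.07, adjusted p = 0.00376). It also fell in E6l2-KO, by 0.22 (adjusted p = 0.0182), and in both genotypes the groups did not overlap. E2f2 fell in wildtype by 0.27 (adjusted p = 0.0451) with overlapping groups, and in E6l2-KO by 0.39 (adjusted p = 0.0061), where it went from 8.888, 8.219 and 8.801 CPM to 6.925, 6.831 and 6.644 CPM. Lig1 fell in wildtype by 0.19 (adjusted p = 0.00305). In E6l2-KO Cdc6, Clspn, Mcm10, Prim1, Pole, Tk1 and Ccne2 also fell, and Ccne2 turned to 0.24 (adjusted p = 0.0813) with the length and GC offset.

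Ccne2 was the gene whose etoposide response was found to differ between genotypes. It was 36.96, 36.43 and 33.73 CPM with DMSO in wildtype and 29.69, 30.22 and 30.55 CPM with etoposide (log2 fold change -0.30, SE 0.07, adjusted p = 0.000983). In Trp53-KO it was 34.86, 41.76 and 32.21 CPM with DMSO and 34.94, 37.84 and 35.23 CPM with etoposide (log2 fold change -0.01, adjusted p = 1.0). The wildtype groups were apart and the Trp53-KO groups overlapped. The response in Trp53-KO minus that in wildtype was 0.30 (SE 0.10, adjusted p = 0.0306), where 12.1% of all genes were called above and 11.1% below. It is 1 of 42 genes called in that contrast, a lower share than the background, and with 1 library of either genotype left out it kept its call only without Trp53-KO DMSO replicate 2 or Trp53-KO etoposide replicate 3. It was not called with no filter on low counts. With the offset for length and GC content the Ccne2 change turned to 0.32 in wildtype (adjusted p = 0.0144) and the difference between responses to -0.32. Ccne2 shares 609 of its 3495 exon bases with Ints8 on the opposite strand, and Ints8 was not called in wildtype with etoposide.

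In E6l2-Trp53-KO Ccne1, Ccne2, Tk1, Fen1, Rfc5 and Rrm2 fell with etoposide. The call of Fen1 was lost with the length and GC offset (-0.14, adjusted p = 0.0587). Ccne1 was 20.43, 22.78 and 22.22 CPM with DMSO and 15.74, 16.37 and 16.73 CPM with etoposide (log2 fold change -0.40, SE 0.08, adjusted p = 0.00183). Tk1 was 67.66, 64.03 and 62.75 CPM with DMSO and 50.76, 51.5 and 54.45 CPM with etoposide (log2 fold change -0.29, SE 0.05, adjusted p = 0.000234). Neither gene overlapped between the groups. The number called depended on single libraries: 18 fell without etoposide replicate 1, 14 without replicate 2, and 4 without replicate 3, the library that stood apart. The etoposide response in E6l2-Trp53-KO minus that in Trp53-KO had 0 of 42 called by edgeR and by DESeq2 and 5 at an unadjusted p under 0.05, against 0.0925% of all genes above and 0.114% below. For E6l2-KO minus wildtype both tools called 0, with 2 at an unadjusted p under 0.05, against 0.00711% of all genes in each direction.

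The direction of the summed level with etoposide depended on the scale in wildtype and E6l2-KO. The 42 genes together stood at 5721 ± 59.6 CPM with DMSO and 6130 ± 34.7 CPM with etoposide in wildtype after TMM scaling (SD, n = 3), and at 6274 and 5668 CPM on raw library totals. In E6l2-KO they stood at 5959 ± 132 and 6157 ± 110 CPM after TMM scaling, and at 6387 and 5799 CPM on raw totals. At high density both scales gave a lower level, with 5231 ± 397 CPM after TMM scaling in wildtype. In raw counts the 42 genes took a median of 0.63% of a wildtype DMSO library, 0.57% with etoposide and 0.527% at high density. The TMM sums were scaled over all 48 libraries, while the fit of these groups used the 36 untransformed ones. With etoposide, log2 ratios of the printed levels lay above the fitted changes by a median of 0.059 in wildtype and 0.045 in E6l2-KO. The TMM sums carry that shift. The fitted median log2 fold changes of the 42 genes were 0.0183 and -0.0263 in that order.

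Of the further replication genes, 15 fell and 9 rose with etoposide in wildtype, and 14 fell and 8 rose in E6l2-KO. That is 25.9% and 15.5% of the 58 genes in wildtype, beside 21.1% and 20.3% of all genes, and 24.1% and 13.8% in E6l2-KO, beside 16.1% and 18.9%. In Trp53-KO edgeR called 0, and in E6l2-Trp53-KO 5 fell and 1 rose. Cdc7, the kinase that fires origins, fell by 0.41 in wildtype and by 0.54 in E6l2-KO on the log2 scale, and E2f7 fell by 0.69 and 0.51. Of the 20 G2 and mitosis genes, 7 rose and 3 fell in wildtype and 8 rose and 1 fell in E6l2-KO. In E6l2-Trp53-KO 4 rose and 0 fell, and in Trp53-KO 0 were called. Mki67 fell in wildtype and E6l2-KO by 0.27 (adjusted p = 8.21e-05) and 0.23.

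Without treatment the genotypes differed in few of the 42 genes. E6l2-KO against wildtype with DMSO had 0 called by edgeR and by DESeq2, with 4 at an unadjusted p under 0.05, against 1.56% of all genes higher and 2.49% lower. Trp53-KO against wildtype had 3 higher and 0 lower, against 3.54% and 5.49%. These were Cdt1 (log2 fold change 0.27, adjusted p = 0.0221), Tk1 (0.20, adjusted p = 0.0088) and Pold1, the catalytic subunit of polymerase delta (0.20, adjusted p = 0.0489). E6l2-Trp53-KO against Trp53-KO had 5 lower and 0 higher, against 6.79% and 8.14%, namely Pola1, Mcm6, Gins3, Rfc5 and Rrm2.

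Pola1, the catalytic subunit of polymerase alpha, was lower in E6l2-Trp53-KO than in both single knockouts. With DMSO it was 106.8, 109.7 and 108.8 CPM in E6l2-Trp53-KO, 121.6, 125.2 and 126.6 CPM in E6l2-KO, and 130.2, 139.6 and 123.2 CPM where Trp53 alone was targeted. The log2 differences were -0.27 (SE 0.06, adjusted p = 0.00156) from Trp53-KO and -0.21 (adjusted p = 0.0154) from E6l2-KO, with no overlap of groups. It was the 1 gene of 42 called lower against E6l2-KO, where 0 were higher and 7.96% and 8.88% of all genes were called lower and higher.

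These counts moved with the processing: Trp53-KO against wildtype had 0 called with the length and GC offset and 0 without Trp53-KO DMSO replicate 1, 1 without wildtype DMSO replicate 2 and 5 without replicate 3. The Pola1 call against E6l2-KO was lost with the offset, and 0 genes were called there without E6l2-KO DMSO replicate 2 or 3, or without E6l2-Trp53-KO DMSO replicate 2 or 3.

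The largest differences in the 42 genes were between the transformed clones and the untransformed DMSO cells of their genotype. Against Trp53-KO DMSO, 39 fell and 2 rose in clone 4, where 38.7% and 41.7% of all genes fell and rose, and 36 fell and 2 rose in clone 6, where the shares were 38.9% and 38.5%. Against E6l2-Trp53-KO DMSO, 38 fell and 2 rose in clone 7, against 38.9% and 40.6% of all genes, and 40 fell and 2 rose in clone 12, against 39.3% and 40.4%. The median log2 fold change of the 42 genes was -1.29, -0.98, -1.0 and -1.17 in clones 4, 6, 7 and 12, while that of all genes lay between 0.0021 and 0.065. In all 4 clones 36 genes fell, and Rfc2 and E2f2 rose. Of the 36, 19 were below -1 in every clone. The share of all genes that met these rules in all 4 clones is not given here. Clones 4 and 6 share the same DMSO libraries, as do clones 7 and 12. Since the seeding number and culture time of the clones are not given, density and transformation cannot be told apart here. The summed level of the 42 genes was 6132 ± 152 CPM in Trp53-KO DMSO, 2804 ± 38.2 in clone 4 and 3383 ± 83 in clone 6, and 5765 ± 69.7 CPM in E6l2-Trp53-KO DMSO, 2968 ± 19.5 in clone 7 and 2747 ± 38.5 in clone 12 (SD, n = 3).

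**Figure D4:**
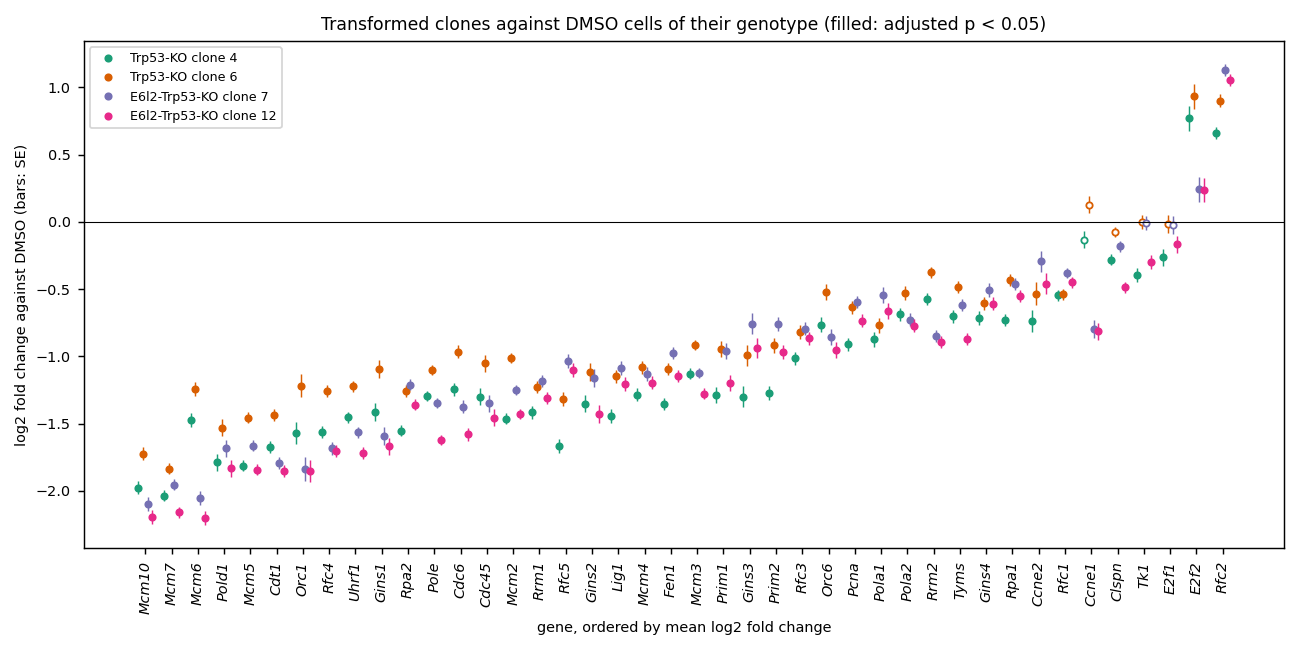
Log2 fold change of each of the 42 genes (x axis, ordered by the mean) in the transformed clones against DMSO cells of the same genotype (colours), with bars of 1 SE and filled points where the adjusted p was under 0.05. In all 4 clones 36 of the genes are called lower, and Rfc2 and E2f2 are above 0 in all 4 clones.

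The clones also differed from the untransformed cells in cell type markers. The summed level of 6 mast cell markers was 115000 to 142000 CPM in the clone libraries and 1060 to 2570 CPM in the untransformed libraries, where Fcer1a, a subunit of the IgE receptor, and Tpsb2, a mast cell tryptase, were under 1 CPM in every library. All 6 markers were detected in the clones. The summed level of 8 granulocyte and monocyte progenitor markers was 4880 to 5630 CPM in the clones and 6140 to 10300 CPM in the others. Within that list the myeloperoxidase gene Mpo averaged 1.0 to 67.6 CPM in the clones and 1800 to 2770 CPM in the untransformed groups. Other myeloid markers did not all move alike. In the same order, Cebpa averaged 0.216 to 8.62 and 179 to 259 CPM, and Elane 0.116 to 15.8 and 6.64 to 33.3 CPM. The protease gene Ctsg averaged 1590 to 2090 and 2050 to 4390 CPM. The receptor gene Kit went the other way, at 2430 to 2750 CPM in the clones and 302 to 444 CPM in the untransformed groups. Erythroid markers (5 genes) summed to 131 to 159 CPM in the clones and 2.17 to 41.9 CPM in the others, with Hba-a1, Hbb-bt and Klf1 under 1 CPM in every clone library. The erythroid sums did not overlap between clones and untransformed libraries, whereas the sums of the neutrophil, macrophage and megakaryocyte lists did. The labelled progenitor type was not matched by Mpo or Cebpa in the clones, whereas Kit was higher there. The part of these markers in the replication gene result was not tested.

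Helicase genes were all lower in every clone. Mcm7 was 432.8, 431.5 and 416 CPM in Trp53-KO DMSO and 104.9, 102.3 and 101.3 CPM in clone 4, 4.11-fold lower (log2 fold change -2.04, SE 0.04, adjusted p = 1.18e-21). In clone 6 it was 121.9, 117.2 and 122.1 CPM (log2 fold change -1.84). In E6l2-Trp53-KO it went from 382.1, 393.2 and 385.1 CPM to 99.73, 99.39 and 99.56 CPM in clone 7 and to 83.35, 88.55 and 91.81 CPM in clone 12, with log2 fold changes of -1.95 and -2.16. Every clone library stood far below the DMSO libraries. The Mcm7 promoter printed above carries an E2F word before the transcript start and another after it, while the other Mcm7 promoter held 0. The Mcm10 promoter held 0 such words, and both genes had a mean log2 fold change of -2.0 over the clones. A link between promoter words and these changes was not tested.

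Mcm6 was lower in the E6l2-Trp53-KO clones than in the Trp53-KO clones. It was 500, 517.2 and 468.3 CPM in Trp53-KO DMSO, 167.8, 183.1 and 177.2 CPM in clone 4 and 215.7, 200.5 and 215.9 CPM in clone 6. In E6l2-Trp53-KO it was 417.1, 433.9 and 428.5 CPM with DMSO, 106, 100.9 and 100.7 CPM in clone 7 and 89.21, 96.66 and 96 CPM in clone 12. The log2 fold changes were -1.48 and -1.24 in clones 4 and 6 and -2.05 and -2.204 in clones 7 and 12. The clones of the 2 genotypes did not overlap. The lower level in E6l2-Trp53-KO clones was tested on the counts of each clone summed over its libraries, as given further on.

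Among loading genes, Mcm10, Cdt1, Orc1, Orc6 and Cdc6 fell in all 4 clones. Mcm10 was 91.73, 96.53 and 89.99 CPM in Trp53-KO DMSO and 22.88, 23.97 and 23.16 CPM in clone 4 (log2 fold change -1.98, SE 0.05, adjusted p = 5.21e-20). Orc1 was 25.66, 25.72 and 25.25 CPM in E6l2-Trp53-KO DMSO and 7.345, 7.441 and 6.978 CPM in clone 12 (log2 fold change -1.85, SE 0.08, adjusted p = 3e-15). Neither gene overlapped between clone and DMSO libraries. Clspn was the exception in this role, with a log2 fold change of -0.08 in clone 6 that was not called. Cdt1 fell by 1.44 to 1.85 on the log2 scale over the 4 clones.

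All 6 polymerase and primase genes and all 4 maturation genes fell in the 4 clones. Pold1 had log2 fold changes of -1.79, -1.53, -1.69 and -1.83 in clones 4, 6, 7 and 12. Fen1 was 142.6, 132.4 and 135.6 CPM in Trp53-KO DMSO and 52.48, 53.57 and 52.95 CPM in clone 4 (log2 fold change -1.35, adjusted p = 4.8e-18). Pcna fell less, by 0.91 in clone 4 and 0.64 in clone 6. Of nucleotide supply genes, Rrm1, Rrm2 and Tyms fell in all 4 clones, and Tk1 was not called in clones 6 and 7.

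Rfc2, a clamp loader subunit, went against the other genes in all 4 clones. It was 171, 169.1 and 155.9 CPM in Trp53-KO DMSO, 266.7, 259.2 and 250.5 CPM in clone 4 and 327.1, 299.8 and 306.5 CPM in clone 6 (log2 fold changes 0.66 and 0.90, adjusted p = 8.88e-12 and 3.66e-14). It was 161.3, 165.9 and 161.9 CPM in E6l2-Trp53-KO DMSO, 355.3, 357.8 and 352.9 CPM in clone 7 and 351.5, 338 and 341.7 CPM in clone 12 (log2 fold changes 1.13 and 1.06). All clone libraries lay above the DMSO libraries. Rfc2 shares 952 of its 6303 exon bases with Lat2, an adaptor gene of mast cells and B cells on the opposite strand, which was picked out after its values were seen. Lat2 rose by 3.28, 3.49, 3.20 and 3.18 on the log2 scale in clones 4, 6, 7 and 12. Reads of the shared bases cannot be told apart, since the kit does not mark strand.

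Cyclin E and E2F genes did not move together. Ccne1 was not called in clones 4 and 6, with log2 fold changes of -0.13 (adjusted p = 0.0651) and 0.13 (adjusted p = 0.0821), and it fell in clones 7 and 12 by 0.79 and 0.81. In clone 7 it was 12.6, 12.78 and 12.3 CPM beside 20.43, 22.78 and 22.22 CPM with DMSO, and the groups were apart. E2f2 rose from 10.22, 8.617 and 8.356 CPM in Trp53-KO DMSO to 15.65, 15.64 and 14.94 CPM in clone 4 (log2 fold change 0.77, SE 0.09, adjusted p = 9.76e-08). It rose by 0.93 in clone 6, by 0.24 in clone 7 (adjusted p = 0.0255) and by 0.23 in clone 12 (adjusted p = 0.0232), where the groups overlapped and the call was lost with the length and GC offset. Ccne2 and Uhrf1 fell in all 4 clones.

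Of the 58 further replication genes, 49 or 50 fell in each clone. Cdca7, which acts with the chromatin remodeler HELLS, had the lowest log2 fold change in each clone, at -3.16, -2.72, -3.41 and -3.45 in clones 4, 6, 7 and 12. It averaged 219.2 CPM in Trp53-KO DMSO and 24.4 and 33.4 CPM in clones 4 and 6, and 202.1 CPM in E6l2-Trp53-KO DMSO and 19.0 and 18.7 CPM in clones 7 and 12. Of the 20 G2 and mitosis genes, 16, 15, 18 and 18 fell in those clones, with medians of -0.41, -0.37, -0.69 and -0.77. Mki67 was not called in clones 4 and 6, at means of 438.7 and 471.6 CPM beside 471.5 CPM with DMSO, and it fell in clones 7 and 12 to 210.7 and 197.7 CPM from 410.7 CPM. The replication genes were thus lower in clones 4 and 6 while the level of Mki67 was not shown to differ.

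Clones of the same genotype differed from each other. In clone 6 against clone 4, 37 of the 42 genes were higher and 0 lower, against 11.7% and 12.3% of all genes, with a median log2 difference of 0.24 and all 42 above 0. Mcm2 was 88.75, 87.67 and 88.44 CPM in clone 4 and 120.2, 122.8 and 126.3 CPM in clone 6 (log2 difference 0.45, SE 0.04, adjusted p = 8.61e-09), with no overlap. In clone 12 against clone 7, 16 were lower and 0 higher, against 4.78% and 8.64% of all genes, and all 42 were below 0 with a median of -0.13. Clspn was 54.64, 57.98 and 53.54 CPM in clone 7 and 46.66, 43.38 and 46.74 CPM in clone 12 (log2 difference -0.30, SE 0.04, adjusted p = 1.19e-05), with no overlap. Libraries of 1 clone are not separate clones. The number called between clones 12 and 7 was 9 without replicate 1 or replicate 2 of clone 7, and without the libraries over 60 M counts 31 were called in clone 6 against 4 and 14 in clone 12 against 7.

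With the 3 libraries of each clone summed, the genotypes of the clones were compared as 2 clones against 2. In E6l2-Trp53-KO clones 5 of the 42 genes were lower and 1 higher than in Trp53-KO clones, against 13.8% and 15.3% of all genes. Mcm6 was lower by 0.95 on the log2 scale (SE 0.10, adjusted p = 0.00342, edgeR), Ccne1 by 0.58 (adjusted p = 0.0264), Rrm2 by 0.51 (adjusted p = 0.014), E2f2 by 0.47 (adjusted p = 0.0369) and Uhrf1 by 0.37 (adjusted p = 0.0439). Ccne2 was higher by 0.40 (adjusted p = 0.0499). The test sets the genotypes against the spread between 2 clones of a genotype, with 2 residual degrees of freedom. edgeR moderates that spread with information from all genes, so the p-values do not rest on these 2 degrees of freedom alone. With 1 of the E6l2-Trp53-KO clones left out, 1 gene was called, and with RLE scaling 4 were lower and 0 higher.

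**Figure D5:**
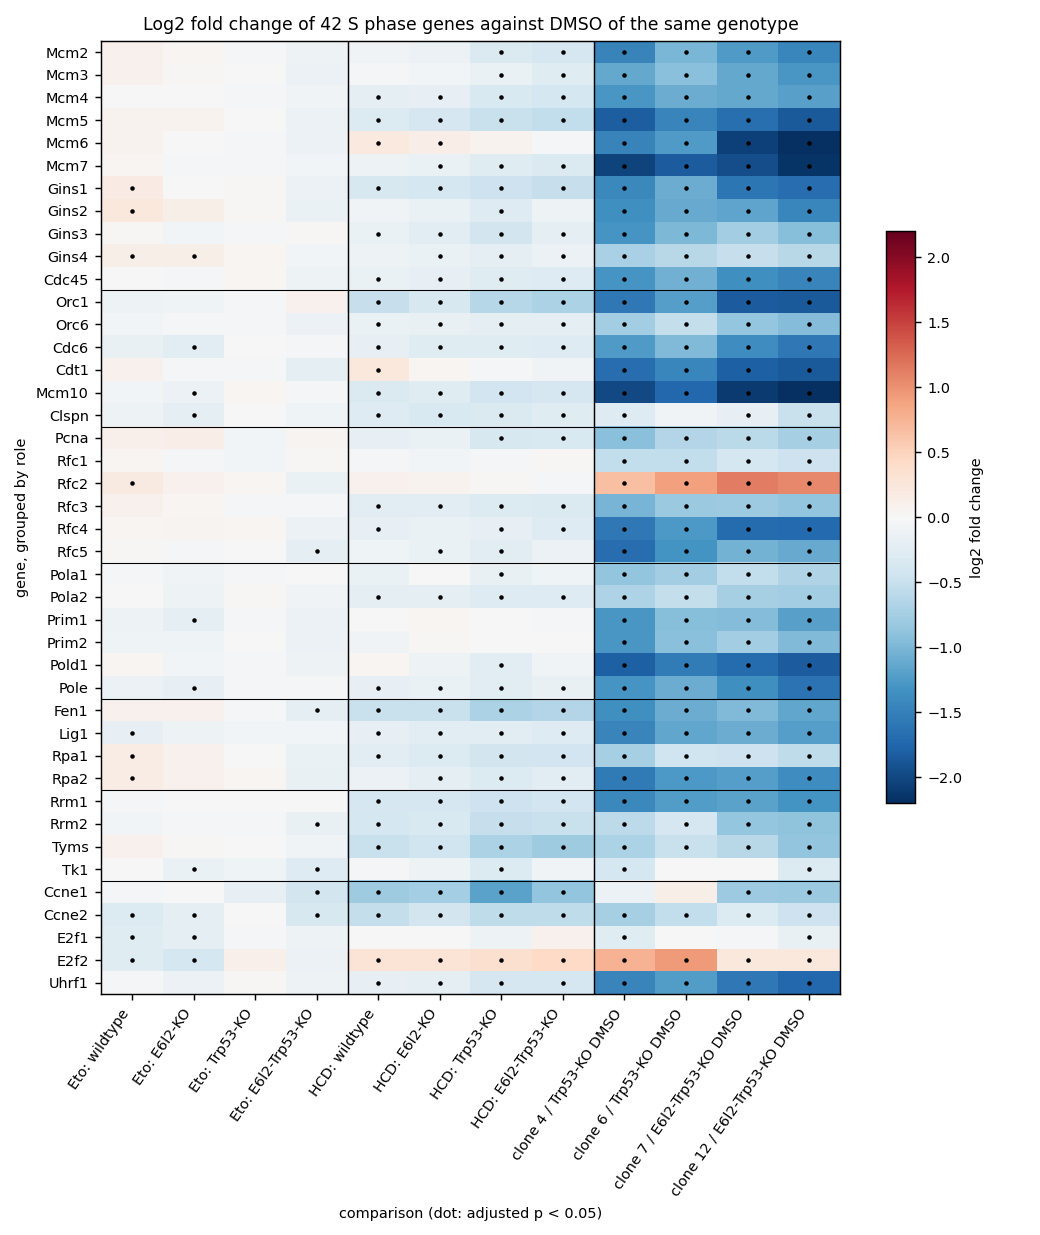
Log2 fold change (colour) of the 42 genes, grouped by role (rows), in 4 etoposide, 4 high density and 4 clone comparisons against DMSO of the same genotype (columns), with a dot where the adjusted p was under 0.05. The etoposide columns are pale, the high density columns are mostly lower and the clone columns are lower by the most, with Rfc2 and E2f2 above 0.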

How the data were processed

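RNA of 48 libraries was sequenced on a NovaSeq system after unstranded library preparation, per the labels' protocols and the series text. The authors deposited 1 table of expected counts per gene, of which 58.1% of nonzero values were whole within 0.01. The counting tool, genome build and strand setting are given by none of the sources used here. Counts were rounded, scaled by TMM, filtered with filterByExpr and tested with edgeR 4.0.16 (quasi-likelihood F test, R 4.3.3, limma 3.58.1), with Benjamini-Hochberg adjustment over all genes tested. The 36 untransformed libraries were fitted together (14059 genes), the 12 clone libraries with their 6 DMSO libraries (14403 genes), and the clone sums apart (15865 genes). Calls are adjusted p-values under 0.05, and each SE was computed as the size of the log2 fold change over the square root of F. Printed levels are CPM scaled by TMM over all 48 libraries, so their log2 ratios differ from the fitted changes by -0.023 to 0.062 over the 42 genes and all comparisons of libraries. Depth was 22.5 to 114 M counts a library. Chi-square comparisons of the libraries within a group gave at least 2.4 per degree of freedom, so no library was counted as a copy. Transcript lengths, GC and exon overlaps came from the GENCODE annotation of the reference and promoters from RefSeq.

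The members and lists were chosen with earlier results of these data known. Values are given for up to 6 genes in each direction of a comparison, those with the largest absolute log2 fold change among the genes called, and for genes called alike in every genotype. Up to 3 of the further replication genes are named per comparison. Alternatives were DESeq2 1.42.0, RLE scaling, no filter, an offset for length and GC (splines with 5 degrees of freedom), only the groups compared, a replicate block, leaving out libraries or clones, and raw-total CPM. Same-numbered libraries deviated together, with all correlations over 0.1, in 1 of 24 comparisons (Trp53-KO etoposide against DMSO). The method was tested on simulated data. Python 3.11.15, pandas 2.3.3 and matplotlib 3.10.9 were used for tables and figures.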

Additional observations from a re-analysis of the deposited data

Results flagged for a closer look

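The etoposide response of Ccne2 differed between genotypes, with a response in Trp53-KO minus that in wildtype of 0.295 on the log2 scale by the test of the difference itself. With 1 library of either genotype left out it kept its call only without Trp53-KO DMSO replicate 2 or Trp53-KO etoposide replicate 3. It turned to -0.317 with the length and GC offset, and was not among the 3 genes called with no filter (Gins2, Rfc2 and Rpa1, all below 0). Clones of the same genotype differed from each other, with 37 of the 42 replication genes called between clones 6 and 4 of Trp53-KO and 16 of 42 between clones 12 and 7 of E6l2-Trp53-KO.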

How the results depend on the processing

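The numbers of genes called at high density and in the clones against DMSO stayed within 1.5 times of the reported ones under DESeq2, RLE scaling, no filter, the length and GC offset, the groups alone and the replicate block. With the groups of a comparison fitted alone, 16 genes were called with etoposide in wildtype, 17 in E6l2-KO and 2 in E6l2-Trp53-KO, and with DMSO 3 between E6l2-KO and wildtype, 5 between Trp53-KO and wildtype and 5 between E6l2-Trp53-KO and E6l2-KO. It was 5 for the etoposide response in Trp53-KO minus wildtype. With no filter, 6 were called with etoposide in E6l2-KO, and with DMSO 2 between E6l2-KO and wildtype, 5 between Trp53-KO and wildtype, 2 between E6l2-Trp53-KO and Trp53-KO and 2 between E6l2-Trp53-KO and E6l2-KO. For differences in response with no filter, 3 were called for etoposide in Trp53-KO minus wildtype, 1 for etoposide in E6l2-Trp53-KO minus Trp53-KO and 2 for high density in Trp53-KO minus wildtype. With the length and GC offset, 0 were called with DMSO between Trp53-KO and wildtype, 11 between E6l2-Trp53-KO and Trp53-KO, 12 between E6l2-Trp53-KO and E6l2-KO, and 4 for the etoposide response in Trp53-KO minus wildtype. With DESeq2 the last 3 were 8, 2 and 2. The offset reversed Ccne2 (0.321 in wildtype and 0.239 in E6l2-KO with etoposide, and -0.317 for its difference in response) and Gins4 (-0.104 and -0.053 in the same genotypes). The cause was not tested.

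On raw library totals the summed level was 6274 CPM in wildtype DMSO, 5668 in wildtype etoposide, 6387 in E6l2-KO DMSO, 5799 in E6l2-KO etoposide, 6467 in Trp53-KO DMSO, 6380 in Trp53-KO etoposide, 6181 in E6l2-Trp53-KO DMSO and 5986 CPM in E6l2-Trp53-KO etoposide, and 2747, 3148, 2685 and 2516 CPM in clones 4, 6, 7 and 12.

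When libraries were left out in turn, the number called with etoposide was 7 to 10 in wildtype, 2 to 8 in E6l2-KO (2 without DMSO replicate 2, 3 without DMSO replicate 3, 6 without etoposide replicate 1 or 2), 0 to 0 in Trp53-KO and 4 to 18 in E6l2-Trp53-KO. At high density it was 19 to 28, 19 to 27, 32 to 34 and 29 to 30 in the same order. With DMSO it was 0 to 0 for E6l2-KO against wildtype, 0 to 5 for Trp53-KO against wildtype, 2 to 4 for E6l2-Trp53-KO against Trp53-KO (2 without Trp53-KO replicate 2, 3 without Trp53-KO replicate 1 or E6l2-Trp53-KO replicate 2 or 3) and 0 to 1 against E6l2-KO. For differences in response it was 0 to 4 for etoposide in Trp53-KO minus wildtype, 0 to 1 for etoposide in E6l2-Trp53-KO minus Trp53-KO and for high density in Trp53-KO minus wildtype, and 0 to 0 for the others. In the clones it was 41 to 42, 38 to 39, 39 to 40 and 40 to 42 for clones 4, 6, 7 and 12, 30 to 38 between clones 6 and 4, 9 to 15 between clones 12 and 7, and 1 to 5 for the clone sums.

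A replicate block gave 5 higher and 5 lower with etoposide in wildtype and 3 higher and 24 lower at high density, and the same number called as without the pairing in the other comparisons, with 0 for Trp53-KO etoposide. Of calls of single genes it ended that of Gins4 with etoposide in wildtype (adjusted p = 0.0512) and that of Rfc5 with DMSO between E6l2-Trp53-KO and Trp53-KO (adjusted p = 0.0539). The clone sums carry no replicate numbers, so the block was not fitted to them. For single named genes, 571 of 678 values with a library left out and 671 of 716 under the other alternatives kept their direction and call.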
